A study of Mus musculus with 9 samples.

Results

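Coenzyme A (CoA) carries fatty acids and acetate as thioesters, and 10 liver transcripts that set the size and use of that pool are described here. They comprise 7 acyl-CoA thioesterases (*Acot1*, *Acot2*, *Acot3*, *Acot4*, *Acot8*, *Acot12* and *Acot13*), the CoA diphosphatases *Nudt7* and *Nudt19*, and the pantothenate kinase *Pank1*. The members were chosen by gene symbol, with earlier results of these data known, and each matched 1 row of the 54007 in the expression table. All 10 were among the 10988 genes that reached at least 1 FPKM (fragments per kilobase of transcript, scaled to the size of the library) in at least 3 libraries and were tested.

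Acyl-CoA thioesterases cut an acyl-CoA into a free fatty acid and CoA, and different family members do so in the cytosol, in mitochondria and in peroxisomes. CoA itself is built from pantothenate (vitamin B5), with pantothenate kinase at the first and rate-controlling step. Nudix diphosphatases of peroxisomes cut CoA and acyl-CoAs, and in mouse liver several genes of this system are known targets of the fatty acid receptor PPARα.

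Livers came from C57BL/6 mice on postnatal day 98, and 3 groups of 3 libraries each were sequenced. The control group was given neither the high-fat diet nor the bacterium as far as the labels say (replicates 1, 2 and 4), the HFD group was fed the high-fat diet (replicates 1, 2 and 3), and the HFD+Pc group received that diet and the bacterium *Papillibacter cinnamivorans* by gavage (replicates 1, 3 and 4). The study entered 15 mice per group at 6 weeks of age. The labels used here state no genetic modification, sex, bacterial dose or diet composition, and leave unsaid if each library held RNA of 1 animal or of several, so the p-values reflect how far these libraries spread, which may be technical. The diet comparison, HFD against control, asks which transcripts differ with the diet. The bacterium comparison, HFD+Pc against HFD, asks which differ with gavage of the bacterium on that diet. The labels name gavage for HFD+Pc alone, so the bacterium and the gavage itself cannot be told apart in that group. The combined comparison sets HFD+Pc against control. These comparisons share libraries and are not independent of each other.

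Reads recovered from the FPKM came to 16279985 to 18641454 per library, and each member drew 89 to 7714 of them in a library. Hepatocyte markers were abundant in each library, with a summed level of 54376 to 55910.2 FPKM over 11 genes in control, 39177 to 41333 in HFD and 43289 to 57108 in HFD+Pc. *Alb* made up most of these sums, with means of 38648, 26448 and 36337 FPKM, and 3 of the 11 had a positive difference in HFD against control. The 6 adipocyte markers summed to 2.07 to 2.31 FPKM in control, 6.59 to 27.0 in HFD and 3.57 to 7.28 in HFD+Pc. Most of that change was *Cfd*, with means of 0.0812, 12.3 and 4.50 FPKM, while *Fabp4* averaged 2.07, 2.08 and 1.36. *Adipoq*, *Plin1*, *Lep* and *Retn* were at 0 in every control and HFD+Pc library and averaged at most 0.556 FPKM in HFD. The 6 endothelial markers summed to 62.5 to 70.6, 42.6 to 54.9 and 47.8 to 52.7 FPKM, and the 5 B and plasma cell markers to 19.0 to 25.7, 46.0 to 76.7 and 22.9 to 33.0. The 8 stellate cell markers summed to 106.6 to 118 FPKM in control, 87.5 to 98.1 in HFD and 87.6 to 107.6 in HFD+Pc, and the 3 red cell markers to 220.3 to 352, 201 to 318 and 153 to 207. The 8 macrophage markers summed to 245 to 331, 233 to 328 and 172 to 286 FPKM, the 5 bile duct markers to 17.7 to 25.5, 23.7 to 39.4 and 19.5 to 32.4, and the 4 T cell markers to 3.02 to 3.49, 3.46 to 5.79 and 3.13 to 3.72. HFD replicate 3 correlated with the HFD+Pc libraries (Pearson r across genes of 0.981 to 0.982) about as closely as with HFD replicates 1 and 2 (0.982 and 0.9802). The part of these differences in the results below was not tested.

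With the diet alone, *Nudt7* rose 1.58-fold and was the 1 member of 10 to pass, where 9.97% of all tested genes passed, 4.61% as higher and 5.35% as lower (limma adjusted p under 0.05 over all tested genes). Between HFD+Pc and HFD, *Nudt19* was 1.40-fold higher and was again the 1 member of 10 to pass, where 0.628% of all genes passed, 0.182% as higher and 0.446% as lower. HFD+Pc livers held more *Nudt7*, *Nudt19* and *Acot13* transcript than control livers, 3 of 10 members where 23.1% of all genes passed, 11.1% as higher and 11.9% as lower. The shares in the diet and combined comparisons were near those of all genes. At an unadjusted p under 0.05, 4, 1 and 3 of 10 members stood in the diet, bacterium and combined comparisons, beside 27.8%, 15.6% and 38.2% of all genes. No member passed as lower in these comparisons. The chromosome 12 thioesterases *Acot1* to *Acot4* spread most within the HFD group, and none of them passed. In a bulk liver sample, fewer cells of a type and less RNA per cell cannot be told apart.

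**Figure D1:**
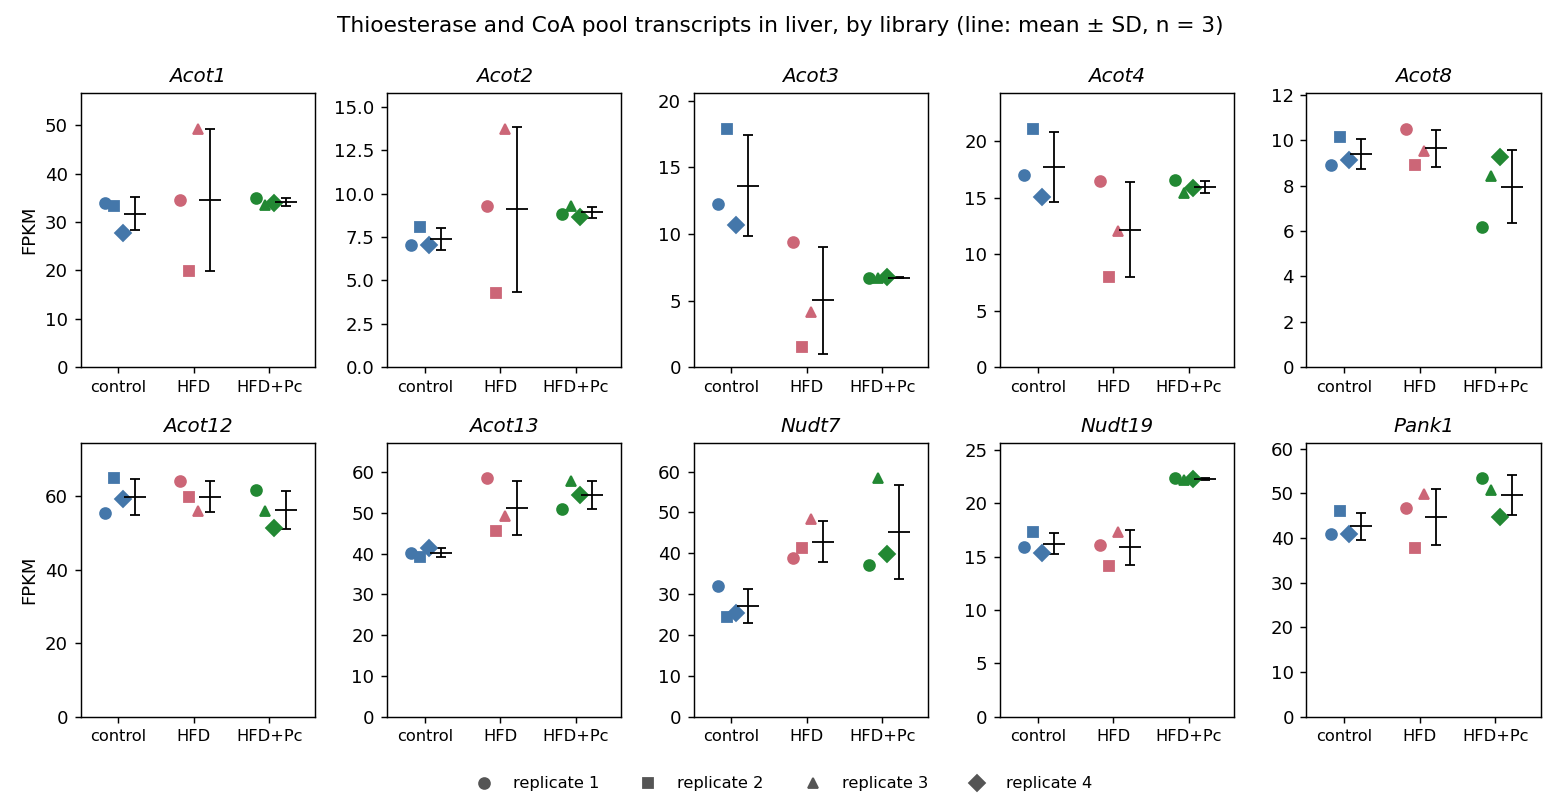
FPKM (vertical axis, from 0 in each panel) of the 10 transcripts in the 9 libraries, by group on the horizontal axis. Symbols give the replicate, and the black line and bar give the mean ± SD of 3 libraries. *Nudt7* is higher in both groups on the high-fat diet than in control, *Nudt19* is higher in HFD+Pc alone, and *Acot1* to *Acot3* spread widely within HFD.

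The neighbouring genes *Acot1* and *Acot2* on chromosome 12 encode the cytosolic and the mitochondrial long-chain acyl-CoA thioesterase, and their transcripts are alike enough that short reads may be shared. Their coding sequences were identical at 1178 of 1236 aligned bases (95.3%), with one identical run of 273 bases. Of the 50-base words of *Acot2*, 24.5% also occur in *Acot1*, and 13.6% of the words of *Acot1* occur in *Acot2*. The following 120 bases are shown because no gap-free aligned coding stretch of this length holds more differences between the genes. The 14 differing bases are in capitals, and the stretch opens with identical bases. They cover coding bases 767 to 886 of *Acot1* and 890 to 1009 of *Acot2* in GENCODE M21.
Acot1: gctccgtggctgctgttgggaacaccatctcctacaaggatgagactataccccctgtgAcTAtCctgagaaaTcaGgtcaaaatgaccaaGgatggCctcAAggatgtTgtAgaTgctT
Acot2: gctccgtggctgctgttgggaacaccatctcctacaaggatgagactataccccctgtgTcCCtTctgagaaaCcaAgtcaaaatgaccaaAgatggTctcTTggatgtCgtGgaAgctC

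*Acot1* stood at 33.9, 33.4 and 27.7 FPKM in control replicates 1, 2 and 4, 34.4, 19.8 and 49.3 in HFD replicates 1, 2 and 3, and 35.04, 33.5 and 34.01 in HFD+Pc replicates 1, 3 and 4. HFD replicate 2 was the lowest and HFD replicate 3 the highest of all 9 libraries, and every control and HFD+Pc library lay inside the span of HFD. The means were 31.7 ± 3.40 FPKM in control, 34.5 ± 14.7 in HFD and 34.2 ± 0.786 in HFD+Pc (SD, n = 3 libraries each, as for all means below). On the log2(FPKM + 1) scale, HFD differed from control by 0.04 ± 0.26 (SE) and HFD+Pc from HFD by 0.08 ± 0.26 (limma adjusted p = 0.945 and 0.916). *Acot2* stood at 7.01, 8.09 and 7.05 FPKM in control replicates 1, 2 and 4, 9.31, 4.24 and 13.7 in HFD replicates 1, 2 and 3, and 8.80, 9.29 and 8.63 in HFD+Pc replicates 1, 3 and 4. HFD replicates 2 and 3 were again the lowest and the highest, while each HFD+Pc library lay above each control library. *Acot2* differed by 0.15 in the diet, 0.10 in the bacterium and 0.24 in the combined comparison, each ± 0.30 (limma adjusted p = 0.786, 0.909 and 0.586).

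The genes are 3919 and 2196 bases long, so a read assigned to *Acot2* adds more FPKM than one assigned to *Acot1*, and their summed FPKM still depends on how reads were split between them. The sum was 39.0 ± 3.69 FPKM in control, 43.6 ± 19.5 in HFD and 43.1 ± 0.656 in HFD+Pc. Two-sided exact permutation tests on log2(sum + 1) gave p = 0.8, 0.9 and 0.1 in the diet, bacterium and combined comparisons, where 0.1 is the smallest p that 3 against 3 libraries allow. The level of *Acot2* per unit of *Acot1* was 0.207, 0.243 and 0.254 in the control libraries, 0.27, 0.214 and 0.279 in HFD and 0.251, 0.277 and 0.254 in HFD+Pc. That ratio spanned 0.207 to 0.279, while *Acot1* itself spanned 19.8 to 49.3 FPKM. The part of reads shared between these genes in that ratio was not tested.

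*Acot3* and *Acot4* lie in the same gene cluster and encode peroxisomal enzymes, *Acot3* acting on medium- and long-chain acyl-CoAs and *Acot4* on succinyl-CoA in mouse. Their RefSeq promoter windows (GRCm38.p6, 250 bases before to 50 after the start) are shown because both hold the hexamer AGGTCA, which PPARα and its partner RXR recognise when it is repeated. The hexamer was searched on both strands, and capitals mark the match, which reads TGACCT on the printed strand in both. The windows are chr12:84051894-84052193, plus strand, for *Acot3* and chr12:84038129-84038428, plus strand, for *Acot4*.
Acot3: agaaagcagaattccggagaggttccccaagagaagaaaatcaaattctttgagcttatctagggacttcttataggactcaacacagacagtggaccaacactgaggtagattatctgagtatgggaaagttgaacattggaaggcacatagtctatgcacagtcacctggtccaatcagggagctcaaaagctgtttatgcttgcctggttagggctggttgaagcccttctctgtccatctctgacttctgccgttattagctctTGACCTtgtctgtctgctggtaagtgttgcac
Acot4: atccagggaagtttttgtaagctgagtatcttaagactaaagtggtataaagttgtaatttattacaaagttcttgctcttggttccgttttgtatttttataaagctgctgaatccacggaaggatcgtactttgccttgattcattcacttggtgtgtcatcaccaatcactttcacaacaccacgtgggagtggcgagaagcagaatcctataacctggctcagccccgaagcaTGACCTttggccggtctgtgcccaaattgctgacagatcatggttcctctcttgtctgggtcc

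In the printed windows the match lies at bases 19 to 24 in *Acot3*, counted from 1 at the start, and at bases -13 to -8, counted back from it, in *Acot4*. Another RefSeq window of *Acot3*, with a different start, places the same match at bases 12 to 17. *Acot12* also holds it, at bases -110 to -105, so 3 of the 9 members with a promoter entry do. Of all 32851 windows of this length, 16.3% hold it, a share per window, while some members have more than 1 window. The direct repeat of PPARα and RXR, AGGTCA, any 1 base and AGGTCA again, contains the hexamer and was found on either strand in 13 windows (0.0396%) and in none of these members, which says only that those letters are not in these windows.

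*Acot3* stood at 12.2, 17.9 and 10.7 FPKM in control replicates 1, 2 and 4, 9.37, 1.51 and 4.13 in HFD replicates 1, 2 and 3, and 6.69, 6.68 and 6.75 in HFD+Pc replicates 1, 3 and 4. Each control library lay above each library of both other groups, and HFD replicate 2, with 89 reads, was the lowest. The mean was 13.6 ± 3.80 FPKM in control, 5.004 ± 4.002 in HFD and 6.71 ± 0.0389 in HFD+Pc, so HFD averaged 0.368 and HFD+Pc 0.493 of control. The log2 differences were -1.49 ± 0.42 in the diet, 0.59 in the bacterium and -0.89 in the combined comparison (limma adjusted p = 0.0568, 0.548 and 0.152). Without HFD replicate 1, the limma adjusted p became 0.0226 for HFD against control and 0.0468 for HFD+Pc against control. In each comparison that was the 1 of 9 fits without 1 library to pass, with limma adjusted p up to 0.173 and 0.366. Of 9 other settings, 0 passed for HFD against control (limma adjusted p up to 0.160). For HFD+Pc against control 1 of 9 passed, a fit of those groups alone at 0.0115, with limma adjusted p up to 0.3225.

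*Acot4* stood at 16.99, 21.1 and 15.04 FPKM in control replicates 1, 2 and 4, 16.5, 8.02 and 12.04 in HFD replicates 1, 2 and 3, and 16.6, 15.5 and 15.8 in HFD+Pc replicates 1, 3 and 4. HFD replicate 1 lay among the control libraries and HFD replicates 2 and 3 below them. HFD differed from control by -0.54 ± 0.21 and HFD+Pc from HFD by 0.41 (limma adjusted p = 0.136 and 0.389). Without HFD replicate 1 the first had a limma adjusted p of 0.0490. That was the 1 of 9 fits without 1 library to pass, with limma adjusted p up to 0.334, and 0 of 9 other settings passed. The level of *Acot3* per unit of *Acot4*, a ratio chosen after the values were seen, was 0.72, 0.848 and 0.711 in control, 0.569, 0.188 and 0.343 in HFD and 0.404, 0.432 and 0.427 in HFD+Pc, and it was higher in each control library than in any other. A protein-coding gene on the same strand, *Gm49366*, shares 396 exon bases with *Acot3* and 33 with *Acot4* and was at 0 FPKM in every library. How reads shared with it were assigned is not given. An antisense transcript, *4732463B04Rik*, shares 312 exon bases with *Acot3* and 615 with *Acot4* at 0.278 to 1.02 FPKM. The sources used here do not say whether counting used strand, so reads of these genes and of that transcript cannot be told apart.

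Within HFD, the SD was 42.7%, 52.2%, 79.97% and 34.7% of the mean for *Acot1*, *Acot2*, *Acot3* and *Acot4*, against 10.8%, 8.31%, 27.9% and 17.5% in control and 2.30%, 3.86%, 0.580% and 3.54% in HFD+Pc. Counting error alone gives 5.04% for *Acot3* in HFD+Pc, which is more than the spread seen there. HFD replicate 2 was the lowest of the 9 libraries for all 4 genes. HFD replicate 3 was the highest for *Acot1* and *Acot2* and, for *Acot3*, the second lowest.

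**Figure D2:**
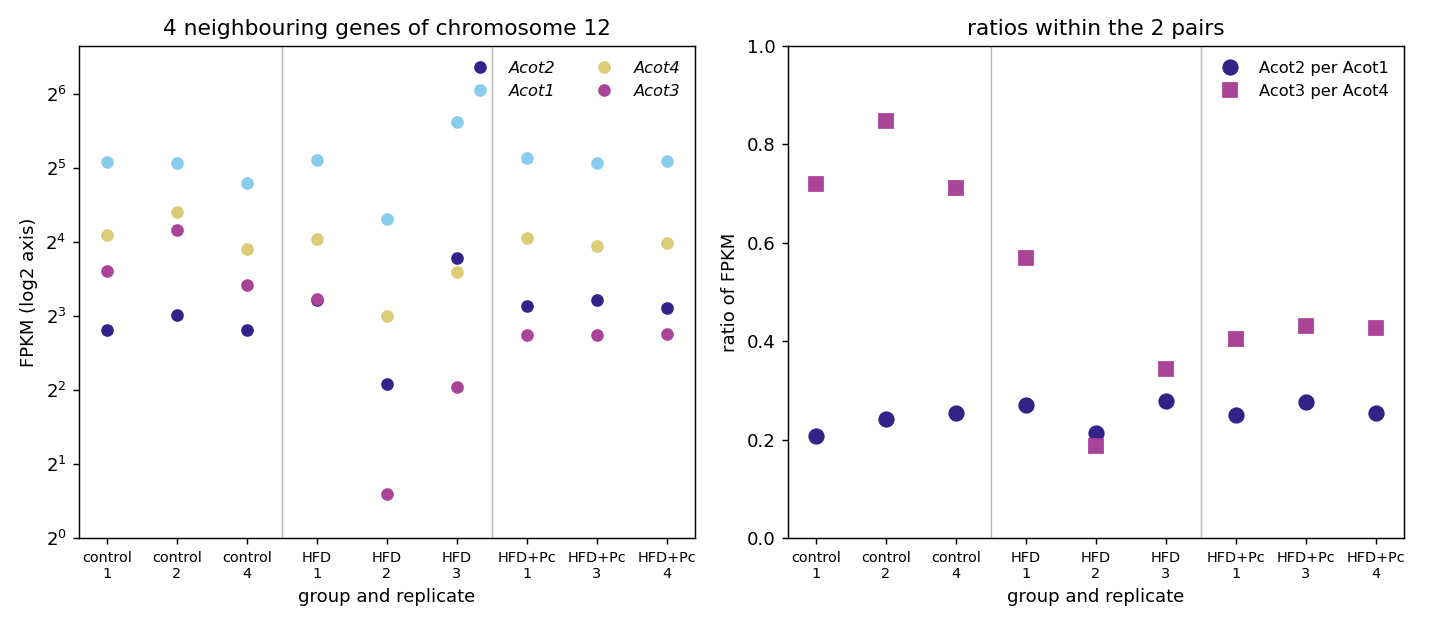
Left, FPKM (log2 axis) of the 4 neighbouring thioesterase genes of chromosome 12 in each library, given by group and replicate on the horizontal axis. Right, the FPKM ratio of *Acot2* to *Acot1* and of *Acot3* to *Acot4*, where the first lies between 0.207 and 0.279 in all 9 libraries and the second is 0.711 to 0.848 in control and at most 0.569 elsewhere.

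*Acot13* (also called Them2) encodes a mitochondria-associated thioesterase of long-chain acyl-CoAs, and it shares no 50-base word with another gene. It stood at 40.03, 39.2 and 41.5 FPKM in control replicates 1, 2 and 4, 58.5, 45.6 and 49.2 in HFD replicates 1, 2 and 3, and 50.96, 57.7 and 54.3 in HFD+Pc replicates 1, 3 and 4. Each library on the high-fat diet, with or without the bacterium, lay above each control library, and HFD and HFD+Pc overlapped. *Acot13* was 1.35-fold higher in HFD+Pc than in control (0.42 ± 0.10, limma adjusted p = 0.0167), and the call was lost without control replicate 2 or HFD+Pc replicate 3, with limma adjusted p up to 0.0648. HFD against control gave 0.33 (limma adjusted p = 0.0674), and quantile normalization brought that p to 0.0409. That was the 1 of 9 other settings to pass (limma adjusted p up to 0.192), and 0 of 9 fits without 1 library passed (up to 0.175).

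*Acot12* encodes the cytosolic acetyl-CoA hydrolase of liver and had the highest mean of the 10 in each group. It stood at 55.4, 64.9 and 59.2 FPKM in control replicates 1, 2 and 4, 64.2, 59.7 and 55.9 in HFD replicates 1, 2 and 3, and 61.7, 55.9 and 51.4 in HFD+Pc replicates 1, 3 and 4, and all groups overlapped. The largest of its log2 differences in size was -0.09 ± 0.10, for HFD+Pc against HFD (limma adjusted p = 0.716). *Acot8*, a peroxisomal thioesterase of broad substrate range, stood at 8.89, 10.1 and 9.11 FPKM in control replicates 1, 2 and 4, 10.5, 8.90 and 9.53 in HFD replicates 1, 2 and 3, and 6.16, 8.42 and 9.28 in HFD+Pc replicates 1, 3 and 4. HFD+Pc replicate 1 was the lowest library, HFD+Pc differed from HFD by -0.26 ± 0.13 (limma adjusted p = 0.364), and 9.77% of the 50-base words of *Acot8* also occur in *Snx21* on the opposite strand.

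*Nudt7* and *Nudt19* encode peroxisomal diphosphatases that cut CoA and acyl-CoAs, *Nudt7* being the better known in mouse liver and *Nudt19* in mouse kidney. Their RefSeq promoter windows are shown, all in lower case because neither holds the hexamer AGGTCA, as these were the members called in HFD or between HFD+Pc and HFD. They are chr8:114133368-114133667, plus strand, for *Nudt7* and chr7:35555879-35556178, minus strand, for *Nudt19* (GRCm38.p6).
Nudt7: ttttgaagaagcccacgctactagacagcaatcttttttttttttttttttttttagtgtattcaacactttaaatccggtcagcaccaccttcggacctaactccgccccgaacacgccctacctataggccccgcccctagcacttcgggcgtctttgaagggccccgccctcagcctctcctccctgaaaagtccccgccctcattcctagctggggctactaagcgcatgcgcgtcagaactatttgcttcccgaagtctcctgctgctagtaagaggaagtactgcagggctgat
Nudt19: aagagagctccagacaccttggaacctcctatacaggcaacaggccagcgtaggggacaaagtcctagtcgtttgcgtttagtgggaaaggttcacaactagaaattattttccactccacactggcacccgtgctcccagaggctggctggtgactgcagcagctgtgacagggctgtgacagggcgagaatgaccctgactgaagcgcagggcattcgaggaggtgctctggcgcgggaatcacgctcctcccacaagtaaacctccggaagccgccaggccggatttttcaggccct

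*Nudt7* stood at 31.98, 24.3 and 25.3 FPKM in control replicates 1, 2 and 4, 38.8, 41.4 and 48.4 in HFD replicates 1, 2 and 3, and 37.2, 58.4 and 39.9 in HFD+Pc replicates 1, 3 and 4. Each of the 6 libraries on the high-fat diet lay above each control library, and HFD+Pc replicate 3 was the highest. The mean was 27.2 ± 4.18 FPKM in control, 42.9 ± 4.93 in HFD and 45.2 ± 11.5 in HFD+Pc. *Nudt7* rose 1.58-fold in HFD (0.64 ± 0.17, limma adjusted p = 0.0483) and 1.66-fold in HFD+Pc against control (0.69, limma adjusted p = 0.0209), and HFD+Pc differed from HFD by 0.05 (limma adjusted p = 0.916). The call in HFD was close to the threshold, passed in 5 of 9 other settings, and held in 2 of the 9 fits that left out 1 library, those without HFD+Pc replicate 1 or 3. Without any one of control replicates 1, 2 and 4, HFD replicates 1, 2 and 3 and HFD+Pc replicate 4 it was lost, with limma adjusted p up to 0.142. The call in HFD+Pc was lost without control replicate 2 or 4 or HFD+Pc replicate 3, with limma adjusted p up to 0.0700.

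*Nudt19* stood at 15.9, 17.3 and 15.4 FPKM in control replicates 1, 2 and 4, 16.1, 14.1 and 17.3 in HFD replicates 1, 2 and 3, and 22.3, 22.2 and 22.3 in HFD+Pc replicates 1, 3 and 4. All HFD+Pc libraries lay above all others, and control and HFD overlapped. The mean was 16.2 ± 0.982 FPKM in control, 15.9 ± 1.62 in HFD and 22.3 ± 0.0735 in HFD+Pc. *Nudt19* was 1.40-fold higher in HFD+Pc than in HFD (0.47 ± 0.09, limma adjusted p = 0.0495) and 1.38-fold higher than in control (0.44, limma adjusted p = 0.00814). HFD differed from control by -0.03 (limma adjusted p = 0.846). The call against control held in 9 of 9 fits that left out 1 library (highest limma adjusted p = 0.0301).

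The call of *Nudt19* against HFD held in 1 of 9, the fit without HFD replicate 3, where limma adjusted p was 0.0318, and in 3 of 9 other settings (0.0360 to 0.198 over the 9). It was lost without any one of control replicates 1, 2 and 4, HFD replicates 1 and 2, and HFD+Pc replicates 1, 3 and 4, with limma adjusted p up to 0.144. The spread of *Nudt19* in HFD+Pc, 0.330% of the mean, was smaller than the 3.14% that counting error alone gives. In this comparison the median log2 difference of the 8 macrophage markers was -0.43, and all 8 had a lower mean in HFD+Pc. Of them, 0 of 8 passed (3 at unadjusted p under 0.05 by limma, 0 by limma-voom). The 3 tested B and plasma cell markers had a median of -0.79, with 0 passed by limma and 2 by limma-voom. Medians were -0.75, -0.41, -0.29 and -0.21 for adipocyte, red cell, T cell and bile duct markers. They were 0.1, 0.084 and 0.063 for hepatocyte, stellate cell and endothelial markers. The part of any of these markers in the *Nudt19* result was not tested. The kidney markers *Umod*, *Slc34a1* and *Kap* summed to at most 0.0958 FPKM in any library. The antisense transcript *B230322F03Rik*, which shares 938 exon bases with *Nudt19*, was at 0.0347 to 0.152 FPKM.

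*Pank1*, the main pantothenate kinase of mouse liver, stood at 40.8, 46.1 and 40.9 FPKM in control replicates 1, 2 and 4, 46.6, 37.7 and 49.8 in HFD replicates 1, 2 and 3, and 53.4, 50.8 and 44.6 in HFD+Pc replicates 1, 3 and 4. The groups overlapped, and the lowest and the highest library were HFD replicate 2 and HFD+Pc replicate 1. *Pank1* differed by 0.06 in the diet, 0.15 in the bacterium and 0.21 in the combined comparison, each ± 0.12 (limma adjusted p = 0.773, 0.584 and 0.213).

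**Figure D3:**
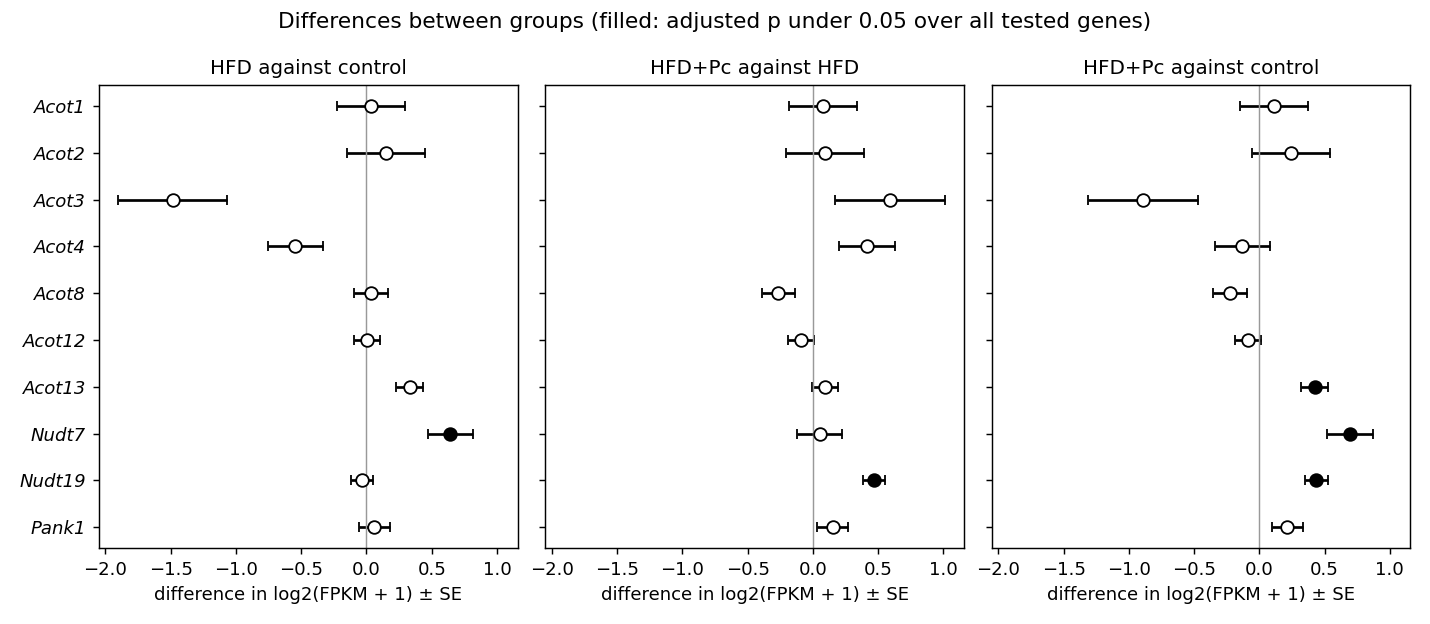
Difference between groups in mean log2(FPKM + 1) ± SE (horizontal axis) for each of the 10 transcripts (vertical axis) in the 3 comparisons, with filled points for a limma adjusted p under 0.05 over all tested genes. *Nudt7* is filled in HFD against control, *Nudt19* in HFD+Pc against HFD, and *Acot13*, *Nudt7* and *Nudt19* in HFD+Pc against control.

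By level, the control livers held *Acot12* above *Pank1* and *Acot13*, whose ranges overlapped, then *Acot1* and *Nudt7*, also overlapping. *Acot4*, *Nudt19* and *Acot3* followed with ranges that overlapped from each to the next, and *Acot8* and *Acot2* were the lowest, each apart from its neighbour. In HFD, the ranges overlapped from each gene to the next from *Acot12* through *Acot13*, *Pank1* and *Nudt7* to *Acot1*, and again from *Nudt19* through *Acot4*, *Acot8* and *Acot2* to *Acot3*. In HFD+Pc, *Acot12*, *Acot13*, *Pank1* and *Nudt7* overlapped in turn, *Acot1*, *Nudt19* and *Acot4* stood apart, and *Acot2*, *Acot8* and *Acot3* overlapped in turn. FPKM are per length, but reads that *Acot1* to *Acot4* share with each other, or that *Acot3*, *Acot4*, *Acot8*, *Acot12* and *Nudt19* share with overlapping genes, could shift their place in this order.

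The members' median log2 difference was 0.04, 0.09 and 0.16 in the diet, bacterium and combined comparisons, beside medians of -0.00087, 0.0094 and 0.0083 over all tested genes. Groups did not overlap for 3, 1 and 5 of 10 members, where 32.9%, 19.8% and 42.8% of all tested genes did not. The first and last of these shares were near those of all genes, and the second was below. The genes most like *Nudt7* across the 9 libraries, by Pearson r of log2(FPKM + 1), were *Clpb* (0.982), *Synj2bp* (0.981) and *Impa1* (0.969). *Ice2* (0.968), *Gdi2* (0.956) and *Hook3* (0.953) were most like *Nudt19*, and *C1d* (0.966), *Maob* (0.962) and *Ppcs* (0.961) most like *Acot13*. These are descriptions over libraries that share groups.

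Among 17 tested genes of CoA synthesis, breakdown and transport, 3 rose and 1 fell in HFD against control, and 5 rose and 2 fell in HFD+Pc against control, where 9.97% and 23.1% of all tested genes passed. None passed in HFD+Pc against HFD, where 2 had an unadjusted p under 0.05 by limma and 0 passed by limma-voom. Of all tested genes, 0.628% passed there and 15.6% had an unadjusted p under 0.05 by limma. The list's median was 0.13 in each comparison. *Vnn1*, a pantetheinase that returns pantothenate from CoA breakdown, was 31.3 ± 1.07 FPKM in control, 77.6 ± 18.2 in HFD and 86.97 ± 13.5 in HFD+Pc. It rose by 1.26 ± 0.16 in HFD and 1.44 in HFD+Pc against control (limma adjusted p = 0.00532 and 0.00148), and kept both calls in 9 of 9 fits that left out 1 library. The related *Vnn3* fell in both, by 0.34 and 0.22 (limma adjusted p = 0.0203 and 0.0446). The first was lost without control replicate 1, 2 or 4 or HFD replicate 1 or 2, with limma adjusted p up to 0.0677, and the second without control replicate 1, 2 or 4, HFD replicate 1 or 2 or HFD+Pc replicate 1, 3 or 4, with limma adjusted p up to 0.124.

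*Ppcs*, which follows pantothenate kinase in CoA synthesis, rose from 13.9 ± 0.825 FPKM to 19.1 ± 3.08 in HFD and 21.8 ± 0.983 in HFD+Pc (limma adjusted p = 0.0382 and 0.00534). The call in HFD was lost without control replicate 1, 2 or 4, HFD replicate 1 or 2 or HFD+Pc replicate 3 or 4, with limma adjusted p up to 0.115, and that in HFD+Pc held in 9 of 9 fits that left out 1 library. *Aasdhppt*, which transfers the phosphopantetheine of CoA to proteins, rose by 0.26 and 0.44 (limma adjusted p = 0.0482 and 0.00431). Its call in HFD was lost whichever library was left out, with limma adjusted p up to 0.158, and that in HFD+Pc held in 9 of 9 fits. *Pank3*, another pantothenate kinase, and *Abcd2*, a peroxisomal acyl-CoA transporter, rose in the combined comparison by 0.46 and 0.85 (limma adjusted p = 0.0195 and 0.0240). *Pank3* lost its call without control replicate 2 or 4 or HFD+Pc replicate 4, with limma adjusted p up to 0.0643, and *Abcd2* without control replicate 1 or 4 or HFD+Pc replicate 3 or 4, with limma adjusted p up to 0.0766. *Dcakd*, named for its likeness to the last kinase of CoA synthesis, fell by 0.35 there (limma adjusted p = 0.0274), a call lost without control replicate 2 or 4 or HFD+Pc replicate 1 or 3, with limma adjusted p up to 0.0934.

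**Figure D4:**
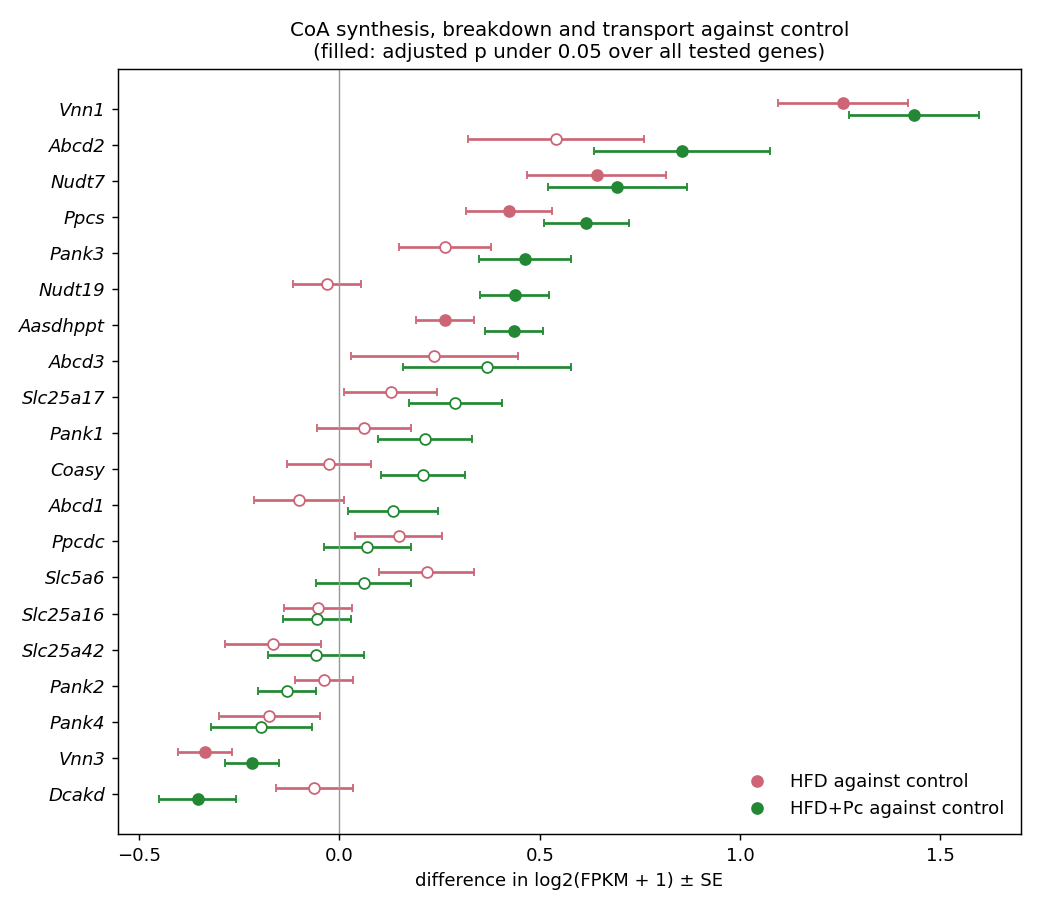
Difference from control in mean log2(FPKM + 1) ± SE (horizontal axis) for 17 tested genes of CoA synthesis, breakdown and transport with *Pank1*, *Nudt7* and *Nudt19* (vertical axis), in HFD and in HFD+Pc, with filled points for a limma adjusted p under 0.05 over all tested genes. *Vnn1* has the largest differences, 1.26 and 1.44, and *Nudt19* is filled for HFD+Pc alone.

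Of 16 other thioesterase genes 10 were tested, and 1 fell in HFD, while 1 rose and 1 fell in HFD+Pc against control, shares near the 9.97% and 23.1% of all tested genes. *Ppt2*, a lysosomal thioesterase, fell by 0.41 in HFD (limma adjusted p = 0.0176), a call lost without control replicate 1 or HFD replicate 1, with limma adjusted p up to 0.0598. *Hibch*, a mitochondrial hydrolase of the valine pathway, rose by 0.45 and *Lypla2*, a cytosolic acyl-protein thioesterase, fell by 0.44 in HFD+Pc (limma adjusted p = 0.00796 and 0.0214), the latter lost without control replicate 1 or 4, with limma adjusted p up to 0.0646. None passed in HFD+Pc against HFD (2 at unadjusted p under 0.05 by limma, 0 by limma-voom), where 0.628% of all tested genes passed.

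The acyl-CoA synthetases, which make the substrates of the thioesterases, rose in 3 of 16 tested genes in HFD and 6 of 16 in HFD+Pc against control, with no fall and medians of 0.21 and 0.25. Of all tested genes, 4.61% and 11.1% passed as higher in these comparisons, and 9.97% and 23.1% in either direction. *Acsf2*, *Acss3* and *Slc27a1* rose in both, by 0.63, 0.66 and 0.81 in HFD (limma adjusted p = 0.0122, 0.00756 and 0.0231) and by 0.42, 0.75 and 0.79 in HFD+Pc (limma adjusted p = 0.0204, 0.00190 and 0.0121). *Acss3* kept its calls in 9 of 9 fits that left out 1 library, as did *Acsf2* in HFD and *Slc27a1* in HFD+Pc. *Slc27a1* in HFD was lost without control replicate 1 or 4 or HFD replicate 1, with limma adjusted p up to 0.0742, and *Acsf2* in HFD+Pc without control replicate 4 or HFD+Pc replicate 3, with limma adjusted p up to 0.0738. *Acsl3*, *Acsm5* and *Aacs* rose in HFD+Pc against control, by 0.81, 0.60 and 1.49 (limma adjusted p = 0.0293, 0.0215 and 0.0317). *Acsl3* was lost without control replicate 2 or 4 or HFD+Pc replicate 3 or 4, with limma adjusted p up to 0.102, *Acsm5* without HFD+Pc replicate 3 or 4, with limma adjusted p up to 0.0799, and *Aacs*, which activates acetoacetate, without control replicate 1, 2 or 4, HFD replicate 2 or HFD+Pc replicate 3 or 4, with limma adjusted p up to 0.109. *Acsl1*, the main long-chain synthetase of liver, differed by 0.01 and 0.06 (limma adjusted p = 0.953 and 0.740). In HFD+Pc against HFD 0 of 16 passed (2 at unadjusted p under 0.05 by limma, 0 by limma-voom), where 0.628% of all tested genes passed.

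Of 7 acyl-CoA binding proteins, 0 passed in HFD against control (2 at unadjusted p under 0.05 by limma, 1 by limma-voom), where 9.97% of all tested genes passed and 27.8% had an unadjusted p under 0.05. With HFD+Pc against control, 2 rose and 2 fell, where 23.1% of all genes passed. *Fabp1*, which binds fatty acids and acyl-CoA in hepatocytes, was 2386 ± 455 FPKM in control, 1808 ± 89.8 in HFD and 865 ± 165 in HFD+Pc. It fell by 1.08 ± 0.18 in the bacterium comparison, the 1 gene of this list to pass there, where 0.628% of all genes passed, and by 1.46 against control (limma adjusted p = 0.0452 and 0.00156). The first of these calls was lost without control replicate 2, HFD replicate 1, 2 or 3 or HFD+Pc replicate 1, 3 or 4, with limma adjusted p up to 0.138, and the second held in 9 of 9 fits. In the bacterium comparison 4 of the 7 had an unadjusted p under 0.05 by limma, beside 15.6% of all genes, and 2 passed by limma-voom. *Acbd6* fell there by 0.51 without passing (limma adjusted p = 0.0526). *Acbd6* also fell in the combined comparison, by 0.79, and *Acbd5*, which tethers peroxisomes, and *Scp2*, a peroxisomal thiolase and lipid carrier, rose by 0.56 and 0.41 (limma adjusted p = 0.00168, 0.00615 and 0.0181). Of these 3, *Scp2* lost its call without control replicate 2 or 4 or HFD+Pc replicate 3, with limma adjusted p up to 0.0726.

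Among 6 genes of carnitine transfer, 1 rose and 1 fell in HFD, and 2 rose and 1 fell in HFD+Pc against control, where 9.97% and 23.1% of all tested genes passed. *Cpt1a*, which commits acyl-CoA to mitochondria, fell by 0.57 and 0.64 (limma adjusted p = 0.0253 and 0.00832), while *Cpt2*, its partner on the matrix side, rose by 0.54 and 0.67 (limma adjusted p = 0.0230 and 0.00510). *Crot*, the peroxisomal carnitine octanoyltransferase, rose by 0.81 in HFD+Pc against control (limma adjusted p = 0.0116). These HFD+Pc calls held in 9 of 9 fits that left out 1 library. The HFD call of *Cpt1a* was lost without control replicate 2 or 4 or HFD replicate 1 or 2, with limma adjusted p up to 0.0748, and that of *Cpt2* without control replicate 1, 2 or 4 or HFD replicate 1 or 3, with limma adjusted p up to 0.0746.

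Of 29 peroxisomal genes and PPARα targets, 3 passed as higher in HFD and 5 in HFD+Pc against control, and none passed as lower. In all, 23 of 29 differences were positive in each, with medians of 0.21 and 0.26, beside -0.00087 and 0.0083 over all tested genes. Of all tested genes, 4.61% and 11.1% passed as higher, and 9.97% and 23.1% in either direction. At an unadjusted p under 0.05 by limma stood 12 and 11 of the 29, beside 27.8% and 38.2% of all tested genes. By limma-voom 6 and 7 of the 29 passed. *Pdk4* and *Fgf21* of this list averaged 0.404 and 0.467 of control in HFD without passing (limma adjusted p = 0.107 and 0.0656). *Cpt1a* in both comparisons and *Fabp1* in HFD+Pc against control, counted in the lists above, passed as lower. *Ppara* itself was 44.96 ± 4.08 FPKM in control, 42.6 ± 0.349 in HFD and 50.6 ± 5.40 in HFD+Pc and did not pass (limma adjusted p = 0.672, 0.282 and 0.245 in the 3 comparisons). *Pex11a*, a factor of peroxisome division, rose by 0.62 in HFD (limma adjusted p = 0.0445), a call that held in the fit without HFD replicate 2 and in no other of the 9 that left out 1 library (limma adjusted p up to 0.123). *Cyp4a12a*, a fatty acid ω-hydroxylase, and *Decr2*, the peroxisomal dienoyl-CoA reductase, rose in HFD by 0.99 and 0.41 and in HFD+Pc by 1.06 and 0.73 (limma adjusted p = 0.0351, 0.0413, 0.0141 and 0.00301). Their HFD+Pc calls held in 9 of 9 fits, while in HFD *Cyp4a12a* was lost without control replicate 1 or 4, HFD replicate 2 or 3 or HFD+Pc replicate 3, with limma adjusted p up to 0.0800, and *Decr2* without control replicate 1, 2 or 4, HFD replicate 1 or 3 or HFD+Pc replicate 3 or 4, with limma adjusted p up to 0.123. The mitochondrial β-oxidation genes *Hadhb*, *Decr1* and *Eci1* rose by 0.44, 0.35 and 0.37 in HFD+Pc against control (limma adjusted p = 0.0162, 0.0430 and 0.0460). *Hadhb* was lost without control replicate 1 or HFD+Pc replicate 3, with limma adjusted p up to 0.0530, and *Decr1* and *Eci1* each held in 2 fits, without HFD replicate 2 or 3, with limma adjusted p up to 0.125 and 0.149. None of the 29 passed in HFD+Pc against HFD (5 at unadjusted p under 0.05 by limma, 0 by limma-voom), nor did any of the 6 carnitine transfer genes (0 by each measure). In that comparison 0.628% of all tested genes passed and 15.6% had an unadjusted p under 0.05 by limma.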

How the data were processed

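Trizol-extracted liver RNA was read on an Illumina sequencer, per the labels' protocols. The submitters' processing notes name HISAT2 2.0.5 and the GRCm39 build. The authors deposited FPKM per gene, per the file headers. The counting tool, its annotation, its use of strand and the way copies share reads are not given in the sources used here. A table of gene names gave symbols to 52093 of 53700 Ensembl identifiers. Whole reads were recovered from the deposited FPKM with GENCODE M21 gene lengths for 25356 of 26278 genes above 0 (96.5%, within 0.02 of a whole number), all 10 members included. Dividing reads by FPKM gave library sizes of 99.1% to 110.3% of the recovered totals.

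Genes that reached 1 FPKM in 3 or more libraries entered limma 3.58.1 in R 4.3.3 (lmFit, eBayes with trend and robust) on log2(FPKM + 1), on all 9 libraries with a mean for each group and nothing else. Benjamini-Hochberg adjustment ran over every tested gene (threshold 0.05), and fold values are ratios of mean FPKM. The pseudocount makes the log2 differences of low genes smaller. The test was tried on simulated data that used the same spread setting for every gene. That setting does not cover the wider spread of *Acot1* to *Acot4* within HFD. Other tables and figures were made with Python 3.11.15, numpy 2.4.6, pandas 2.3.3, matplotlib 3.10.9 and Biopython 1.88.

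Named genes were the 10 members, each gene of 6 related lists that passed in a comparison, *Ppara*, *Vnn1* and *Acsl1*, and the 3 genes nearest in pattern to each member that passed. Members and lists were chosen with earlier results of these data known. Sequences came from RefSeq (GRCm38.p6) and GENCODE M21, an earlier build than that of the data, so genome coordinates are given for the printed promoters alone, and other positions count from a gene's start or within its coding sequence. Alternatives were other scalings, filters, pseudocounts, 2-group fits, a fit without trend and robust estimation, limma-voom on recovered reads, a block on replicate number, and fits without 1 library.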

Additional observations from a re-analysis of the deposited data

How the results depend on the processing

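With 3 libraries a group, calls near the threshold moved with 1 library. The lowest depth behind a member's value was 89 reads, for *Acot3* in HFD replicate 2. For the 10 members, 477 of 540 values under alternatives kept their direction and side of the threshold, 35 lost a call, 5 gained one and 23 changed sign, none of the last being a called value. Most of the 540 belong to differences not called in the main fit, which had no call to lose. Of 18 alternatives each, the call of *Nudt7* in HFD against control held in 7 and that of *Nudt19* against HFD in 4. In HFD+Pc against control, the calls of *Acot13*, *Nudt7* and *Nudt19* held in 14, 13 and 17 of 18. Scaling moved the median of all genes by under 0.1 on the log2 scale. The cause of the changes below was not tested, beyond the larger number of genes tested under looser filters and the fewer libraries in smaller fits.

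Genes past the threshold numbered 1095 in HFD against control, and 725 with a minimum of 0.1 FPKM, 209 with no filter, 659 with the 2 groups alone and 332 to 1126 with 1 library left out. In HFD+Pc against HFD they numbered 69, and 27, 3 and 22 under the same settings in turn, 107 after quantile normalization, 30 without trend and robust estimation, 109 by limma-voom and 5 to 123 with 1 library left out. In HFD+Pc against control they numbered 2538, and 1383 with no filter and 1396 to 2644 with 1 library left out.

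Members past the threshold in HFD against control were 1, and 0 with a minimum of 0.1 FPKM, with no filter or without trend and robust estimation by limma (4 at unadjusted p under 0.05 in each), 2 after quantile normalization and 0 to 2 with 1 library left out. In HFD+Pc against HFD they were 1, and 0 with a minimum of 0.1 FPKM, with no filter, after quantile normalization, with the 2 groups alone or without trend and robust estimation by limma (1 to 2 at unadjusted p under 0.05), and 0 to 1 with 1 library left out, while limma-voom gave 1. In HFD+Pc against control they were 3, and 1 with no filter and 1 to 4 with 1 library left out. *Nudt19* against HFD passed in 3 of 9 other settings (limma adjusted p from 0.0360 to 0.198), and *Nudt7* in HFD in 5 of 9 (0.0235 to 0.144).

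The replicate numbers share no stated animal or batch, and deviations of same-numbered libraries correlated at -0.119 to 0.0533, so they were not taken to pair the libraries. With the number as a replicate block, 232, 3 and 1058 genes passed in the diet, bacterium and combined comparisons, and 0 members in each by limma (3, 1 and 3 at unadjusted p under 0.05). Under the block, HFD against control changed sign for *Acot1* (-0.11), *Acot2* (-0.017), *Acot12* (-0.0033) and *Pank1* (-0.019), HFD+Pc against HFD for *Acot1* (-0.0061) and *Acot2* (-0.026), and HFD+Pc against control for *Acot1* (-0.12) and *Acot2* (-0.043).

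With 1 library left out, uncalled differences that changed sign in HFD against control ranged from -0.26 to 0.38 for *Acot1*, -0.19 to 0.56 for *Acot2*, -0.022 to 0.088 for *Acot8*, -0.050 to 0.063 for *Acot12*, -0.094 to 0.045 for *Nudt19*, -0.020 to 0.18 for *Pank1* and -0.25 to 0.42 for the sum of *Acot1* and *Acot2*. In HFD+Pc against HFD they ranged from -0.26 to 0.37 for *Acot1*, -0.32 to 0.43 for *Acot2*, -0.14 to 0.17 for *Nudt7* and -0.28 to 0.40 for the sum.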

Other observations

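*Nudt19* per unit of *Nudt7* FPKM, a ratio chosen after the values were seen, was 0.498, 0.711 and 0.607 in control replicates 1, 2 and 4, 0.415, 0.341 and 0.358 in HFD replicates 1, 2 and 3, and 0.6, 0.38 and 0.558 in HFD+Pc replicates 1, 3 and 4. Control lay above HFD in each library, and HFD+Pc replicate 3 lay within the HFD range. The summed level of the 7 thioesterases was 174, 195 and 170.3 FPKM in control, 203, 148 and 194 in HFD, and 186, 187 and 180.2 in HFD+Pc. The lowest and the highest of these sums were both HFD libraries. The SD was smaller than counting error alone gives for 3 of 10 members in HFD+Pc, 1 in control and 0 in HFD, and the median SD was 5.05%, 8.16% and 13.5% of the mean.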
